A study of Canis lupus familiaris with 18 samples.

Results

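The results concern 6 of the 84 genes on a canine mesenchymal stem cell PCR array: the leukocyte surface genes PTPRC and ITGAX and the cytokine genes IL10, IL1B, TNF and IFNG. They were chosen by symbol, and all 6 were found on the array in all 18 samples. The samples were total RNA of mesenchymal stem cells grown from canine fat (cAD-MSCs), taken from 9 female dogs at passage 3 (P3) and, from the same dogs, at passage 6 (P6). The dogs were clinically healthy animals of several breeds and ages, and the fat was taken at elective spaying and digested with collagenase. Every culture started from the whole stromal vascular fraction, received no treatment beyond growth medium, and differed from the other culture of its dog in the number of passages. The comparison asks how the cells changed with longer time in vitro. Donors carry the names of the labels, from 6-21 to 7-22.

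The stromal vascular fraction of fat holds leukocytes, above all macrophages, beside stromal, vascular and blood-borne cells, and culture on plastic enriches the adherent stromal cells. PTPRC encodes CD45, a receptor tyrosine phosphatase present on nucleated cells of the blood lineage and used as a negative marker of mesenchymal stromal cells. ITGAX encodes CD11c, the α subunit of an integrin of dendritic cells, monocytes and macrophages. Of the cytokines, IL10 restrains inflammation, IL1B and TNF are early pro-inflammatory signals of activated myeloid cells, and IFNG is the interferon of T cells and natural killer cells that activates macrophages and, added to stromal cells, raises their immunosuppressive activity.

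Each value rests on 1 well, read as the threshold cycle (CT), the cycle of the PCR when fluorescence passes a fixed level, so that a later CT stands for less transcript. A transcript was called detected where its CT was under 35 cycles. Levels are given as −ΔCT, the geometric mean over the reference genes ACTB, B2M, HPRT1, PGK1 and RPL13A minus the CT of the gene, with a later or undetermined CT set to 35. On this log2 scale 1 unit is a 2-fold difference, and a value at the limit is only an upper bound on the level, between about −19 and −21 depending on the reference genes of the sample. In bulk RNA, fewer cells of a type and less transcript per cell cannot be told apart.

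The reference genes and the genomic DNA control were alike between the passages. The reference mean was 14.85 ± 0.508 cycles at P3 and 14.65 ± 0.321 at P6 (SD, n = 9 each), a difference of −0.20 (two-sided exact permutation test, p = 0.344), and the genomic DNA control crossed in 0 of 18 samples. Of the 84 genes, 75 to 81 were detected at P3 and 72 to 77 at P6. The stromal markers THY1, NT5E, ENG, CD44, ITGB1 and VIM were detected throughout, except THY1 in donor 9-21 at P3. Single wells stood apart in some samples: among 55 genes with a median CT under 25, 5 wells at P3 and 9 wells at P6 gave no signal before 35 cycles, and the 9 at P6 lay in donors 9-21 (5 wells) and 7-22 (4 wells). The passage differences, detection counts and main co-detections are given with and without these 2 donors. Very high levels also occurred. The summed level of the 84 genes was at most 3383% of the reference level at P3 and reached 69589% at P6. Mean BGLAP was 0.00639 times the reference level at P3 and 74.0 times at P6, and mean INS 0.277 and 7.30e-06 times. Whether single wells crossed too early, those of the 6 genes included, was not tested.

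Of the 108 wells of the 6 genes, 69 were detected, 31 were undetermined and 8 crossed at 35 cycles or later. At P3 40 of 54 wells were detected and at P6 29 of 54. Each P3 culture held 3 to 5 of the 6 transcripts with a median of 5, and each P6 culture held 2 to 6 with a median of 3. Detection was lost from P3 to P6 mainly for the surface genes. PTPRC went from 9 to 4 donors, ITGAX from 8 to 3, IL10 from 9 to 7 and IL1B from 4 to 2, while TNF went from 2 to 5 and IFNG stayed at 8. Without donors 9-21 and 7-22, 30 of 42 wells were detected at P3 and 21 of 42 at P6, and over the 7 donors PTPRC went from 7 to 3, ITGAX from 6 to 2 and TNF from 2 to 3. Over the whole array, 10.7% of the genes were detected in at least 2 fewer donors at P6, against 4 of these 6, and 2.38% in at least 2 more, against TNF alone of these 6.

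**Figure D1:**
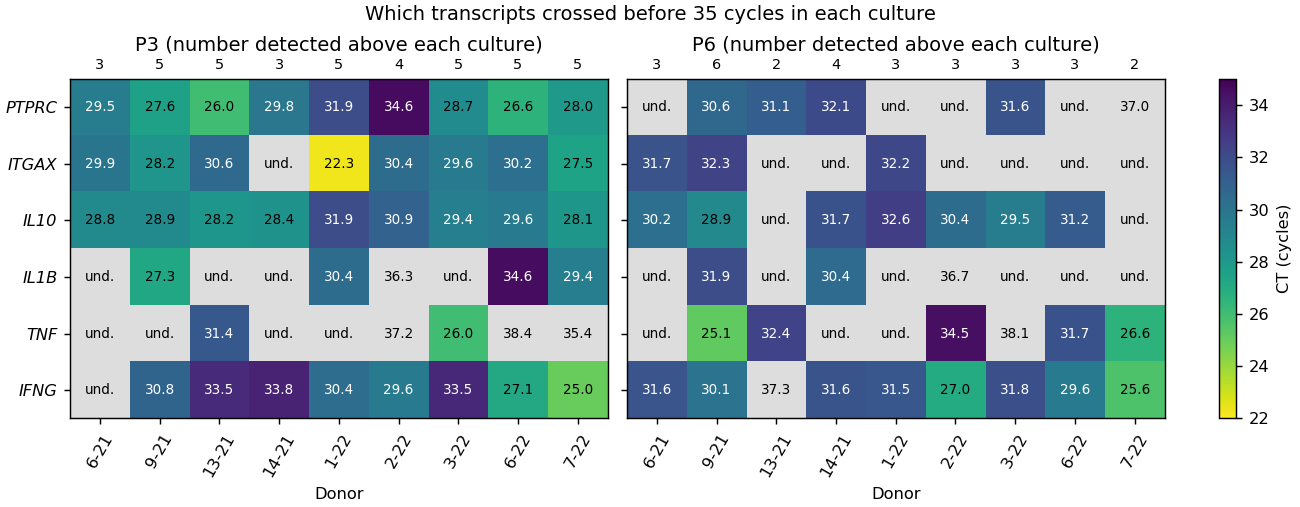
CT (cycles) of each transcript in each donor at P3 (left) and P6 (right), with the number of transcripts detected above each culture. Coloured cells crossed before 35 cycles and grey cells did not ("und." marks an undetermined well), and the PTPRC and ITGAX rows have 17 coloured cells at P3 and 7 at P6.

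In the fit over all genes, 1.19% of the 84 genes were lower at P6 with an adjusted p under 0.05, and 0% were higher. The called gene was PTPRC, 1 of the 6. With an unadjusted p under 0.05, 5.95% of the array was lower at P6, against 3 of the 6 genes (PTPRC, ITGAX and IL10). A mean at least 2-fold lower was found in 25% of the array and in 4 of the 6, and a mean at least 2-fold higher in 11.9% and in TNF alone. The median difference of the 6 genes was −1.92, beside −0.05 for all 84.

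**Figure D2:**
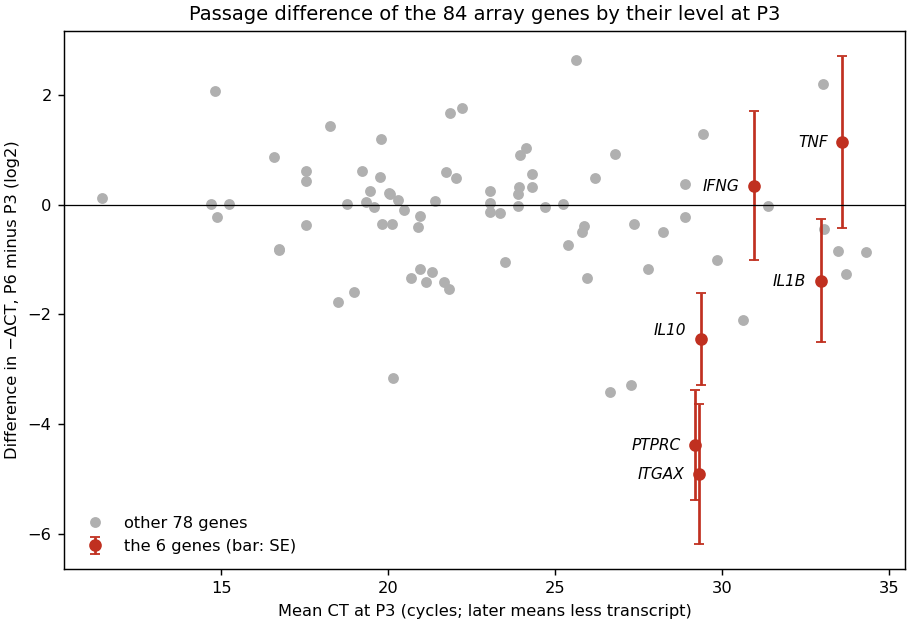
Difference in −ΔCT (P6 minus P3, log2) of the 84 array genes against their mean CT at P3 (cycles, later means less transcript). Red points are the 6 genes with bars of 1 SE, grey points the other 78, and PTPRC (−4.38) and ITGAX (−4.91) lie lowest.

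PTPRC, the pan-leukocyte gene, fell from P3 to P6, in each of the 9 donors. Its −ΔCT ran from −19.37 through a median of −13.85 to −11.55 at P3 (mean −14.34 ± 2.42, SD, n = 9). At P6 it ran from −20.87 through −19.88 to −15.90 (mean −18.73 ± 1.91, n = 9). The passages overlapped only through donors 1-22 and 2-22, whose P3 values of −16.23 and −19.37 lay under the highest P6 value. The difference was −4.38 (SE 0.997, 95% confidence interval −6.48 to −2.29). Its adjusted p was 0.0300 in limma and 0.0202 with the donor as a block. The SE and interval take the 5 P6 values at the 35-cycle limit as measured levels. With a limit of 40 cycles the PTPRC difference was −6.83, outside this interval, and with 32 cycles it was −2.997.

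All 9 P3 cultures gave a PTPRC signal, earliest in donors 13-21 (CT 25.99), 6-22 (26.59) and 9-21 (27.56) and latest in donor 2-22 (34.61). At P6 the transcript was detected in donors 9-21 (CT 30.6), 13-21 (31.14), 3-22 (31.6) and 14-21 (32.06). Donor 7-22 crossed at 37.01, past the limit, and the other 4 wells were undetermined. In the 4 donors measured at both passages the level at P6 was 4.25-fold (14-21), 7.58-fold (9-21), 12.8-fold (3-22) and 39.5-fold (13-21) lower. Against the 35-cycle limit, it was at least 406-fold lower in donor 6-22, at least 130-fold in 7-22, at least 37.4-fold in 6-21, at least 12.6-fold in 1-22 and at least 1.82-fold in 2-22. Donor 13-21, with the highest P3 level, kept a signal at P6, and donor 6-22, with the second highest, did not.

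The PTPRC call was sensitive to single donors. The adjusted limma p was 0.0632 without donor 6-21, 0.0657 without 13-21, 0.0739 without 3-22, 0.0872 without 6-22 and 0.0733 without 7-22, at differences from −4.47 to −3.84. It was 0.177 without both 9-21 and 7-22, at a difference of −4.21. Detection in 9 against 4 donors gave p = 0.0294 by Fisher's exact test, which does not use the pairs and whose adjusted p over 84 genes was 1. The same exact test gave p = 0.0769 on leaving out donor 6-21, and likewise 1-22, 2-22, 6-22 or 7-22, p = 0.0699 without both 9-21 and 7-22, and p = 0.0824 where any crossing counted as detection.

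ITGAX, the CD11c gene, had the largest mean difference of the 84 genes and moved in the same direction. At P3 its −ΔCT ran from −20.39 through −15.16 to −6.59 (mean −14.45 ± 3.60, n = 9), and at P6 from −20.87 through −20.26 to −16.63 (mean −19.36 ± 1.73, n = 9). Of the P3 cultures, 8 lay above every P6 culture, and donor 14-21, with no ITGAX signal at either passage, lay among the P6 values. The difference was −4.91 (SE 1.28, 95% confidence interval −7.60 to −2.22), with an adjusted p of 0.0519 in limma and, the samples being pairs from the same dogs, 0.0238 with the donor as a block. With the block, 2.38% of the 84 genes were called lower, which were PTPRC and ITGAX. The ITGAX interval likewise takes 6 P6 values at the 35-cycle limit as measured levels. With a limit of 40 cycles the ITGAX difference was −7.69, outside that interval, and with 32 cycles it was −3.19.

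Donor 1-22 held by far the most ITGAX transcript of any culture at P3, with a CT of 22.3 where the other detected P3 cultures crossed at 27.46 to 30.57. Its level was 1402-fold lower at P6 (CT 32.16), with 1 well at each passage. PTPRC in the same P3 culture crossed at 31.94 (−ΔCT −16.23, against −6.59 for ITGAX). That was later than in every other P3 culture but that of donor 2-22. The cause of the gap between the 2 leukocyte genes was not tested. Without this donor the difference was −4.22 with an adjusted p of 0.0320, and without donor 14-21 it was −5.54 with an adjusted p of 0.0249. Leaving out any other single donor gave adjusted p-values from 0.0632 to 0.191. Without both 9-21 and 7-22 it was −4.67 with an adjusted p of 0.301. The other donors detected at both passages were 9-21, 15.9-fold lower at P6 (CT 28.2 and 32.31), and 6-21, 2.76-fold lower (29.93 and 31.67). In the remaining 5 donors detected at P3 the P6 well was undetermined. Loss of detection from 8 to 3 donors gave p = 0.0498 by Fisher's exact test (adjusted p = 1), and 0.119 on leaving out donor 13-21, and likewise 2-22, 3-22, 6-22 or 7-22. With a limit of 32 cycles detection went from 8 donors to 1 (Fisher's exact test, p = 0.00337).

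**Figure D3:**
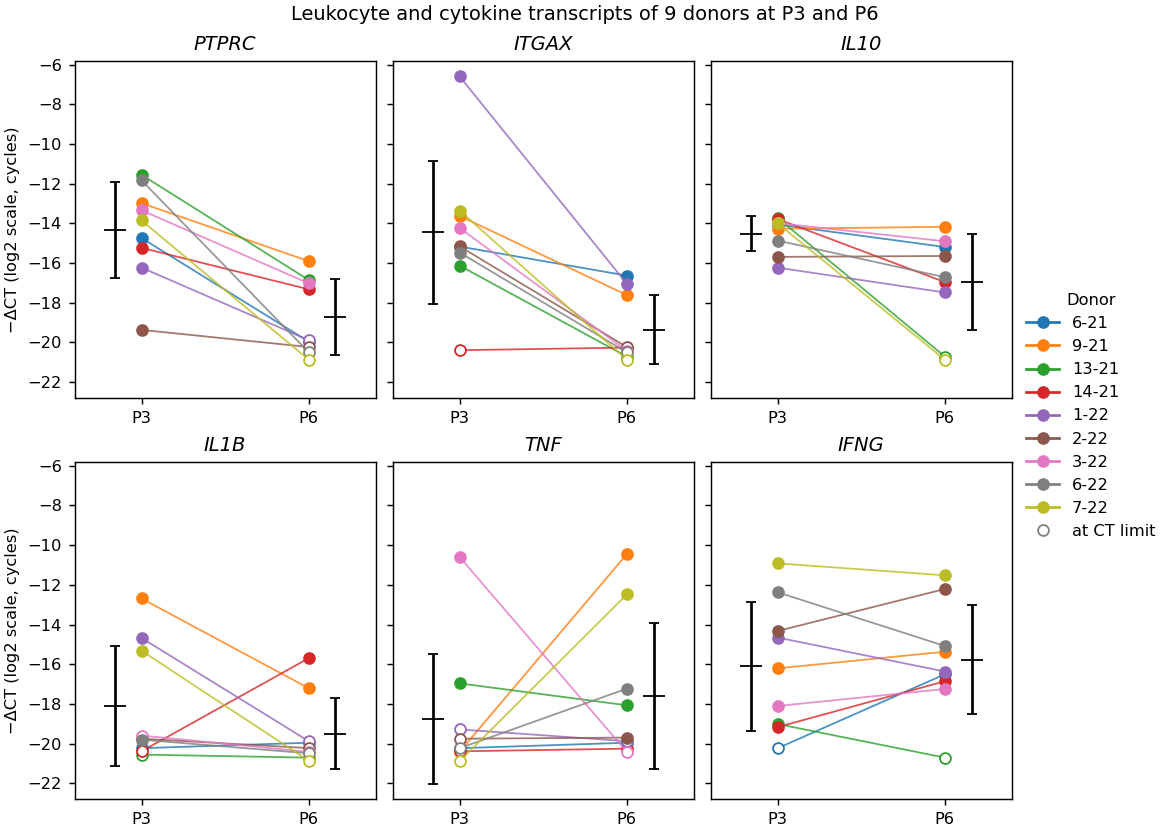
Level of each transcript (−ΔCT, log2 scale in cycles) in each donor at P3 and P6, joined by a line per donor, with the mean and SD of each passage beside the points. Open circles mark wells at the 35-cycle limit, PTPRC is lower at P6 in 9 of 9 donors, and IFNG shows lines in both directions.

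IL10, which restrains macrophage and T cell activation, had the narrowest spread between donors of the 6 genes at P3 and a wider one at P6. Its −ΔCT ran from −16.23 through −14.06 to −13.73 at P3 (mean −14.51 ± 0.895, n = 9) and from −20.87 through −16.71 to −14.17 at P6 (mean −16.96 ± 2.41, n = 9). The wider P6 spread includes 2 undetermined wells set to the 35-cycle limit, and the 7 detected P6 values ran from −17.48 to −14.17. The passages overlapped, with 5 P3 cultures above every P6 culture. The difference of −2.45 (SE 0.838, 95% confidence interval −4.21 to −0.69) had an unadjusted p of 0.00922 and an adjusted p of 0.222, and did not pass the test. Without donors 9-21 and 7-22 it was −2.18 (adjusted p = 0.352), with detection in 7 and 6 of the 7 donors.

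The IL10 values of single donors divided into several patterns. In donors 9-21 (CT 28.85 at P3, 28.87 at P6) and 2-22 (30.93 and 30.41) the −ΔCT differed by at most 0.10. In the other 5 donors detected at both passages P6 was lower, up to 9.05-fold in donor 14-21 (CT 28.39 and 31.7). In donors 13-21 (CT 28.17 at P3) and 7-22 (28.11), among the earliest at P3, the P6 well was undetermined. Donor 7-22 had 4 wells of usually abundant genes without signal at P6, and donor 13-21 had 0, and the part of failed wells in the loss of IL10 was not tested. Without donor 13-21 the IL10 difference was −1.88, and without donor 7-22 it was −1.90.

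IL1B, the pro-inflammatory cytokine that myeloid cells release after activation, gave a signal under 35 cycles in 4 P3 cultures and 2 P6 cultures. Its CT at P3 was 27.27 in donor 9-21, 29.43 in 7-22, 30.39 in 1-22 and 34.57 in 6-22, and at P6 it was 31.91 in 9-21 and 30.44 in 14-21. Detection was lost in 3 donors and gained in 14-21, where no signal had been seen at P3. The −ΔCT ran from −20.56 through −19.76 to −12.69 at P3 and from −20.87 through −20.23 to −15.70 at P6, so the medians were both at the limit. The mean difference of −1.38 (SE 1.13, 95% confidence interval −3.75 to 0.98, adjusted p = 0.873) did not pass the test and rested on a few cultures, being −0.86 without donor 7-22, −0.91 without 1-22, −2.14 without 14-21 and −0.34 without both 9-21 and 7-22.

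TNF, the macrophage cytokine that opens the inflammatory cascade, was the 1 gene of the 6 detected in more donors at P6 under the 35-cycle limit. With any crossing counted it went from 5 to 6 donors, and under 32 cycles from 2 to 3. At P3 it crossed at 26 cycles in donor 3-22 and at 31.41 in 13-21, and at P6 at 25.15 in 9-21, 26.61 in 7-22, 31.74 in 6-22, 32.36 in 13-21 and 34.47 in 2-22. The strong signal of donor 3-22 at P3 was absent at P6 (CT 38.1), and the strong signals of 9-21 and 7-22 at P6 followed an undetermined well and a crossing at 35.43 at P3. The −ΔCT ran from −20.89 through −20.24 to −10.60 at P3 and from −20.42 through −19.70 to −10.45 at P6. The difference was 1.15 (SE 1.57, 95% confidence interval −2.15 to 4.44, adjusted p = 0.873) and detection in 2 against 5 donors gave p = 0.335 by Fisher's exact test. The high P6 values came from the same 2 samples in which wells of abundant genes gave no signal, and without donor 9-21 the difference was 0.04, without 7-22 it was 0.24, without 3-22 it was 2.52 and without both 9-21 and 7-22 it was −1.15.

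IFNG, the T cell and natural killer cell interferon, was detected in 8 of 9 donors at each passage and showed no difference that passed the test. With any crossing counted it went from 8 to 9 donors, and under 32 cycles from 5 to 8 (Fisher's exact test, p = 0.294). It ran from −20.24 through −16.21 to −10.92 at P3 (mean −16.11 ± 3.26, n = 9) and from −20.71 through −16.37 to −11.52 at P6 (mean −15.77 ± 2.74, n = 9), and the ranges of the passages almost coincided. The difference was 0.35 (SE 1.36, 95% confidence interval −2.51 to 3.21, adjusted p = 0.982), and −1.20 to 1.89 was its interval with the donor as a block. Of the 9 donors, 5 were higher and 4 lower at P6, and the sign of the mean turned to −0.07 without donor 6-21. Without donors 9-21 and 7-22 the difference was 0.41.

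IFNG levels spread widely between dogs at both passages. Donor 7-22 had the earliest CT at both passages, 25.03 at P3 and 25.65 at P6, followed at P3 by 6-22 (27.14) and 2-22 (29.57) and at P6 by 2-22 (26.98) and 6-22 (29.59). At the low end were donor 6-21 at P3, undetermined, and 13-21 at P6, past the limit at 37.31. Across the 9 donors the P3 and P6 levels of IFNG correlated with Pearson's r = 0.75 (two-sided exact permutation p = 0.0171, adjusted p = 0.154) and Spearman's rho = 0.82 (exact p = 0.0108, adjusted p = 0.0969), adjusted over the 9 relations computed, so the relation did not pass the correction. It was r = 0.70 without donors 6-21 and 7-22, 0.62 to 0.80 with each donor left out in turn, and 0.55 with a CT limit of 40. IL10 gave r = −0.18 (exact p = 0.685) and rho = −0.20 (exact p = 0.613) between the passages.

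**Figure D4:**
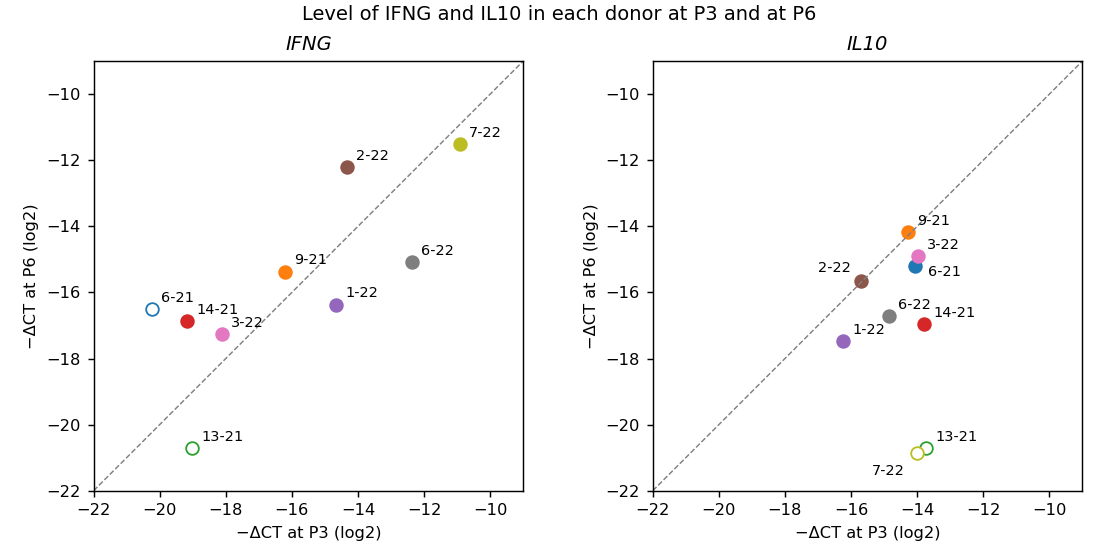
Level at P6 against level at P3 (−ΔCT, log2) for IFNG (left) and IL10 (right), with 1 point per donor, open where either well was at the 35-cycle limit, and a dashed line of equal level. IFNG levels at P3 and P6 have r = 0.75 over 9 donors (adjusted p = 0.154), and IL10 levels r = −0.18 with donors 13-21 and 7-22 at the limit at P6.

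IFNG means also differed by the ending of the donor name, with overlap between the sets. The mean −ΔCT of IFNG was −18.66 in the 4 donors whose name ends in 21 and −14.08 in the 5 whose name ends in 22 at P3, and −17.36 and −14.49 at P6. No correlation was computed within sets of 4 and 5 donors, and the part of the label ending in the relation was not tested. PTPRC at P6 was likewise detected in 3 of 4 donors ending in 21 and 1 of 5 ending in 22. The fall of PTPRC had the same direction in both sets, −3.88 and −4.78, with adjusted limma p-values of 0.850 and 0.283, and 0 of 84 genes were called in either. The ITGAX difference was −2.48 in donors ending in 21 (adjusted p = 0.899) and −6.85 in donors ending in 22 (adjusted p = 0.182), and the gap between the sets was not tested.

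The number of cultures with a pair of transcripts together fell from P3 to P6 along with the detection of the single genes. PTPRC and ITGAX were detected together in 8 of 9 cultures at P3, and in 1 of 9 at P6, donor 9-21. At P6, 3 cultures held PTPRC alone of the pair (13-21, 14-21 and 3-22), 2 held ITGAX alone (6-21 and 1-22) and 3 held neither (2-22, 6-22 and 7-22). PTPRC and IL10 were together in 9 of 9 cultures at P3 and in 3 of 9 at P6. IL10 and IFNG were together in 8 cultures at P3 and 7 at P6. Without donors 9-21 and 7-22, PTPRC and ITGAX were together in 6 of 7 cultures at P3 and 0 of 7 at P6, PTPRC and IL10 in 7 and 2, and IL10 and IFNG in 6 and 6. These are counts with no test, and they largely follow from the single genes. With PTPRC in 9 of 9 cultures at P3, its P3 counts with ITGAX and IL10 equal the single counts of those genes. At P6 PTPRC was detected in 4 donors, ITGAX in 3, IL10 in 7 and IFNG in 8. Whether pairs occurred together more or less often than the single counts give was not tested.

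The most frequent set at P3 was PTPRC, ITGAX, IL10, IL1B and IFNG, in donors 1-22, 6-22, 7-22 and 9-21. Donors 13-21 and 3-22 had TNF in place of IL1B, and IL1B and TNF were both under 35 cycles in 0 of 9 P3 cultures. This separation depended on the limit, since TNF crossed later, at 35.43, 38.42 and 37.24, in donors 7-22, 6-22 and 2-22, of which the first and second had IL1B under 35 and 2-22 had IL1B at 36.31. The P6 culture of donor 9-21 was the 1 culture of the 18 with all 6 transcripts under 35 cycles, and also the one with 5 wells of abundant genes without signal.

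Cytokine transcripts were also detected in cultures where neither leukocyte gene crossed before the detection limit. In the 3 P6 cultures with neither PTPRC nor ITGAX detected, IFNG and TNF were detected in all 3, and IL10 in 2-22 and 6-22. IFNG and TNF had CTs of 25.65 and 26.61 in donor 7-22. In that culture PTPRC crossed at 37.01, past the limit, and 4 wells of usually abundant genes gave no signal. TNF in donor 2-22 crossed late, at 34.47. With single wells, whether these cultures lacked leukocyte transcript was not tested. The 4 P3 cultures with IL1B also held PTPRC, ITGAX, IL10 and IFNG, each of which was detected in at least 8 of the 9 P3 cultures. At P6 it was in donor 9-21, with both leukocyte genes, and in donor 14-21, with PTPRC and no ITGAX signal.

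ITGAX and IL1B, both transcripts of myeloid cells, had the same donors at the top at P3, in a different order. The donors with the highest ITGAX levels were 1-22 (−6.59), 7-22 (−13.35) and 9-21 (−13.62), and the same donors had the highest IL1B levels, at −14.68, −15.32 and −12.69, 2 of them being donors 7-22 and 9-21 with single wells that stood apart. Below them no order could be read, since IL1B was at or next to the limit in the other 6 P3 cultures. Over the 18 samples IL1B was the gene of the array with the pattern most like that of ITGAX, with a Spearman's rho of 0.75 (0.92 within P3, 0.77 within P6). IL1B was detected in 4 P3 and 2 P6 cultures, so these rho values rest largely on wells at the limit. The order of those wells comes from the reference genes alone. All samples share the 35-cycle limit and the reference genes, many values lie at that limit, and the rho values of this kind are descriptions.

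**Figure D5:**
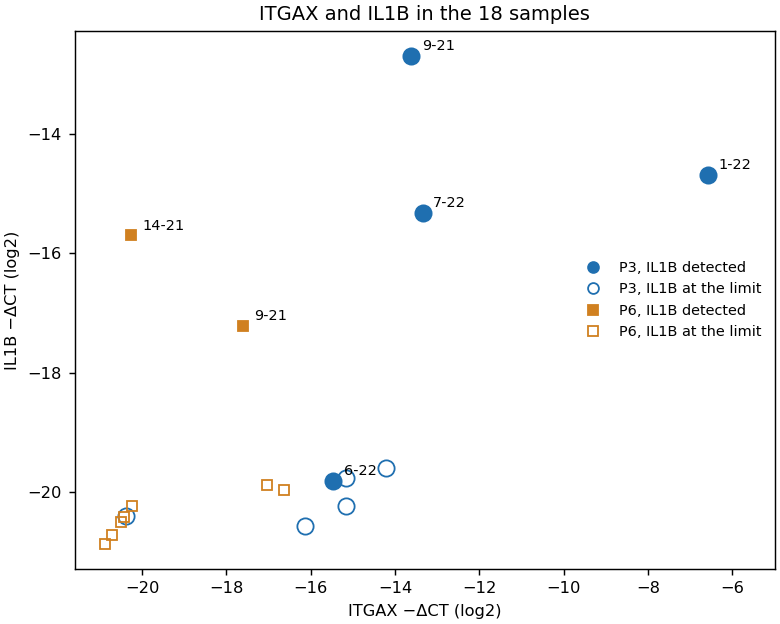
Level of IL1B against level of ITGAX (−ΔCT, log2) in the 18 samples, circles for P3 and squares for P6, filled and named by donor where IL1B was detected. Donors 1-22, 7-22 and 9-21 at P3 stand at the right and top, and the points along the lower edge are IL1B at the limit.

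PTPRC was most like IL10 (rho 0.77 over 18 samples, 0.47 within P3 and 0.40 within P6) and then ITGAX (0.58 over 18, −0.27 within P3 and 0.22 within P6). Outside the 6 genes its nearest patterns were TBX5 (0.42), ADIPOQ (0.41) and INSR (0.41). For ITGAX the nearest outside genes were ADIPOQ (0.50, with 0.73 within P3 and −0.40 within P6), INSR (0.50) and GDF15 (0.43), and for IL10 they were MITF (0.45), CSF2 (0.43) and INSR (0.39). The values over 18 samples also carry the difference between the passage means, and those within a passage did not keep their order. IFNG had its closest patterns outside the 6, in the neurotrophin BDNF (0.79 over 18 samples, 0.68 within P3, 0.87 within P6), the smooth muscle actin ACTA2 (0.78, 0.73 and 0.65) and the fucosyltransferase FUT1 (0.63, 0.77 and 0.48).

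Across donors at P3 no relation between members passed the correction. ITGAX and IL10 had r = −0.67 (two-sided exact permutation p = 0.0438, adjusted p = 0.197) and rho = −0.55 (exact p = 0.133), and r became 0.17 without donors 14-21 and 1-22, so it rested on them. PTPRC and IL10 had r = 0.62 (exact p = 0.0766, adjusted p = 0.230) and rho = 0.47 (exact p = 0.213), and r became −0.40 without donors 1-22 and 2-22. PTPRC and ITGAX, both leukocyte genes, had r = −0.16 (exact p = 0.673) and rho = −0.27 (exact p = 0.493).

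No other immune gene listed here passed the test. Only 1.19% of the 84 genes passed it, which was PTPRC alone, so 0 called in a short list does not set that list apart. Of the cytokine and growth factor genes CSF2, CSF3, IL6, LIF, KITLG and TGFB1, 0 of 6 passed the test in either direction, with 3 means lower and 3 higher and a median difference of −0.09. CSF2, which drives granulocyte and macrophage growth, gave a signal in 4 P3 cultures and 1 P6 culture, with a difference of −1.26 (SE 0.626, adjusted p = 0.835). The leukocyte-binding adhesion genes ICAM1, VCAM1, ALCAM and CD44 had 0 of 4 called and a median difference of 0.41. ANPEP, PROM1 and KITLG, listed together as surface genes, had 0 of 3 called and a median of −0.22. KITLG was also counted in the cytokine and growth factor list.

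Markers of other cell types had no gene past the test, as was the case for every gene of the array but PTPRC. Of the adipocyte genes, the hormone gene ADIPOQ had a difference of −3.29 (adjusted p = 0.345, lower in 8 of 9 donors) and the lipase gene LPL of −3.41 (adjusted p = 0.222, lower in 8 of 9). Their unadjusted limma p-values were 0.0205 and 0.0106, under 0.05 as for PTPRC, ITGAX and IL10. Both went from detection in 9 donors to 7, as IL10 did. PPARG and FASN had higher means, and 0 of 4 passed the test. Of the endothelial genes VWF and KDR 0 of 2 passed, with a median of 0.11, and of the mural genes ACTA2, PDGFRB and MCAM 0 of 3, with a median of −0.23. The part of other cell types in the fall of the leukocyte genes was not tested. The summed level of the 4 adipocyte genes was 2.84 to 9.54% of the reference level at P3 and 3.45 to 18862% at P6, the top value being that of PPARG in donor 1-22. The stromal list had 0 of 6 called and a median of 0.41. The summed level of PTPRC and ITGAX was 0.00267 to 1.04% of the reference level at P3 (median 0.0163%). At P6 it was 0.000104 to 0.00213% (median 0.000823%), on the assumption that every assay gains 2-fold per cycle. The top value at P3 came from the ITGAX well of donor 1-22. The lowest at P6 was that of donor 7-22, with both genes set to the 35-cycle limit, so it is only an upper bound.

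Detection and level of other late-crossing genes were also looked at, in a CT range chosen after the data were seen. The array holds 7 other genes with a mean P3 CT between 28 and 32 cycles, close to those of PTPRC (29.19), ITGAX (29.30) and IL10 (29.36). IGF1 alone of the 7 was detected in at least 2 fewer donors at P6 (9 and 6), and 0 of the 7 differed between the passages at an unadjusted limma p under 0.05. Outside this range, ADIPOQ (mean P3 CT 27.28) and LPL (26.64) went from 9 to 7 donors. CSF2 (33.72) went from 4 to 1 and GDF5 (33.49) from 4 to 2, while EGF (33.02) went from 6 to 8. The part of late crossing in the lower values of PTPRC, ITGAX and IL10 was not tested.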

How the data were processed

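Canine cAD-MSCs of 9 donors were profiled at P3 and P6 by RT-qPCR array (SYBR Green, 1 well per gene, 96 wells). The authors deposited CT values in cycles, treated here as a score, with undetermined wells marked, and, per passage, the mean CT, the mean ΔCT (log2 scale) and 2 to the power −ΔCT (a ratio to the reference genes). Fold changes were also deposited by the authors and were not used. The authors' array software set CTs over 35 to 35 and used the geometric mean of 5 reference genes. The same steps were applied here, and the deposited means were recovered within 0.005 (largest difference 0.0049). PCR gives no read depth, and the precision comes from 9 donors with single wells.

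The passages were compared in limma 3.58.1 under R 4.3.3 (P6 minus P3, two-sided, no donor block, after the unpaired test of the methods), adjusted by Benjamini-Hochberg over 84 genes at 0.05. Detection (CT under 35) was tested with Fisher's exact test, single values over all 48620 divisions of the samples and correlations over all 362880 pairings. The limma fit was tried on simulated normal values without a CT limit, undetermined wells or donor pairs. That trial does not cover genes with many values at the limit. Samples are paired because both passages come from the same dogs: own-donor deviations correlated at 0.066 to 0.643 (median 0.161, 6 of 9 above 0.1), other pairs at a median of −0.034.

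Named genes were the 6 members, the reference genes, other immune genes with an unadjusted p under 0.05 or a detection change of at least 3 donors, and the 3 outside genes most like each member detected in at least 9 samples. Members and lists were chosen with earlier results of these data known. Chosen after seeing the data were the setting without donors 9-21 and 7-22, the relation of P3 to P6 levels, and the look at late genes. Alternatives were the donor block, CT limits of 40 and 32, other normalization, a filter, other tests and omission of donors. All 6 symbols were found in a RefSeq gene table (UU_Cfam_GSD_1.0), and 4 of the 6 assay accessions. Figures were drawn with matplotlib 3.10.9.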

Additional observations from a re-analysis of the deposited data

Results flagged for a closer look

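TNF at P3 had 1 donor far above the rest. Donor 3-22 had a −ΔCT of −10.60, and the nearest other donor, 13-21, had −16.97, so that this gap took 0.619 of the whole range of the 9 donors, above Dixon's critical value of 0.493 for 9. Of the 12 sets examined (6 genes at each of the 2 passages) this was the 1 that stood out, and chance marks about 1 set in 20 where values are free of a limit. Here 7 of the 9 TNF values were set to the 35-cycle limit, which fixes the lower end of the range, so that rate does not hold. ITGAX at P3 was not marked, although donor 1-22 (−6.59) lay far above the next donor, 7-22 (−13.35), in a range of 13.80.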

How the results depend on the processing

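PTPRC kept its direction under every alternative, with an adjusted p from 0.0134 at a limit of 32 cycles to 0.850 with only the donors ending in 21. The call was lost without ACTB and B2M as references (−4.32, adjusted p = 0.0508), with only the donors ending in 21 (−3.88) or 22 (−4.78), without donors 9-21 and 7-22 (−4.21, adjusted p = 0.177), in the exact permutation test of means (−4.38, adjusted p = 0.0518) and in the methods' t-test (−0.0104% of the reference level, adjusted p = 0.781). Leaving out each donor gave −4.82 to −3.84. ITGAX was called with the donor block (−4.91, adjusted p = 0.0238), after normalization to the median of genes detected in all samples (−5.07), after a filter that left 74 genes, those averaging 30 cycles or earlier at P3 or P6 (−4.91) and by the exact permutation test of ranks (−7.67 mean ranks), and leaving out each donor gave −5.54 to −4.22, with an adjusted p from 0.0249 to 0.191 (2 of 9 under 0.05).

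IL1B turned to 0.073 with only donors ending in 21, TNF to −1.15 without donors 9-21 and 7-22, and IFNG to −0.18 at a limit of 32 cycles, −0.41 with only donors ending in 22 and −0.0019% in the methods' t-test, with −0.074 to 0.73 when each donor was left out. The number of genes called lower was 2 with the donor block, the median normalization, the filter or ranks, and 0 without ACTB and B2M, with either donor set, without 9-21 and 7-22, and in the permutation and methods' tests after adjustment (5 and 4 genes unadjusted), with 0 to 2 when each donor was left out. Detection moved by −4 donors for PTPRC where any crossing counted, by −4 for PTPRC and for ITGAX without 9-21 and 7-22, and by −5 to −4 for PTPRC and for ITGAX with each donor left out. Correlations turned without the 2 farthest donors for PTPRC with ITGAX (0.37), IL10 (−0.40) and IFNG (0.31) and ITGAX with IL10 (0.17), and at a limit of 32 for IL10 with IFNG at P6 (−0.14). The cause was not tested. The donor block changed no other call.

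Levels past 35 cycles were not measured, and mean differences move with the limit set: PTPRC was −6.83 with a limit of 40 and −2.997 with 32, and ITGAX −7.69 and −3.19. IL1B, TNF and IFNG did not pass the filter. With single wells, a failed reaction and a missing transcript look the same.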
